A study of Caenorhabditis elegans with 2 samples.

Results

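The small ribosomal subunit protein genes of the nematode Caenorhabditis elegans were examined for peaks of CEH-32, a sine oculis type homeodomain protein that binds DNA. The genes were chosen by their symbol: nuclear protein-coding genes of build WBcel235 named rps- with a number after it. There were 31 such genes, rps-0 to rps-30, among 19973 nuclear protein-coding genes. Binding was measured by chromatin immunoprecipitation and sequencing with an antibody against green fluorescent protein in 1 group of 2 replicates, which the labels give as separate biological samples. The material was whole hermaphrodite L4 larvae, 52 hours past synchronisation, which was by starving L1 larvae after bleaching. They were of strain OP516, genotype unc-119(tm4063) III; wgIs516, a single transgenic line that stably expresses CEH-32 with a C-terminal GFP-FLAG tag. The promoter that drives the fusion is not given in the sources used here. There was no other condition to compare with. Since whole worms were used, a site bound in few cells and a site weakly bound in many cannot be told apart.

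The small subunit of the cytosolic ribosome binds messenger RNA and holds the decoding centre, where codons are matched to transfer RNAs. Its proteins surround a long ribosomal RNA and form a head, a body, and a platform at the exit of the messenger RNA channel. The places of the proteins given below are those known from yeast and mammalian ribosomes. Their genes are strongly transcribed in growing cells. CEH-32 belongs to the Six3 and Six6 group and is known from development of the worm head. Many worm messenger RNAs receive a spliced leader in place of their own first bases, so the annotated start of such a gene is the splice site and not the point where transcription begins. The letters TTTCAG, the usual end of a worm intron, stood directly before an annotated start of 17 of the 31 genes (54.8%), against 27 of 49 large-subunit and stalk protein genes (55.1%) and 16.6% of all nuclear protein-coding genes that are not in the small-subunit set. An AG stood there in 31 of 31 genes, against 43 of 49 large-subunit genes (87.8%) and 7179 of 19942 genes outside the small-subunit set. All distances below run to annotated starts.

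Of the 31 genes, 7 had a peak of the authors' optimal list in their promoter window, or 22.6%, against 1.41% of all nuclear protein-coding genes. The summit of the peak had to lie no more than 1000 bp upstream or 500 bp downstream of the start of a protein-coding transcript. The optimal list is the authors' thresholded list, with 412 peaks on build ce11, of which 388 were nuclear. The signal of a peak is the value that the authors' peak caller gave it, and it can be compared only within a list. The 7 genes were rps-1, rps-12, rps-15, rps-19, rps-20, rps-23 and rps-26. At 6 of them each replicate had a summit within 100 bp of the optimal one, and at rps-15 only replicate 1 did. In the wider list of 10485 relaxed peaks, called on the pooled reads and including background, 20 of the 31 genes had a summit in the window (64.5%, against 20.1% of all genes). The optimal list equals the 412 strongest peaks of that list. The members were chosen with these results known, so the counts are given beside the shares over all genes, with no test.

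The windows below are shown because they hold the summits of 2 of the 7 genes, the strongest of them, rps-1, and the weakest, rps-23, on build ce11. Capitals mark GAGAGA or its complement and GCGGAGTG, a string noticed in 2 of the 7 windows after they were read. Each motif was searched on both strands. The sequences reach 50 bases to each side of the summit, on the strand of the gene (chrIII:4475615-4475715, plus strand, and chrIV:12391308-12391408, minus strand). No motif searched was in the rps-23 window.
rps-1: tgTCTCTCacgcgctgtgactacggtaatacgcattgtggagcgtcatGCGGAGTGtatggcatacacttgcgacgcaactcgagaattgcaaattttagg
rps-23: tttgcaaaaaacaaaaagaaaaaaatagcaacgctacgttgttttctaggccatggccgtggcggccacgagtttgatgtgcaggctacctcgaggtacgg

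The highest signal among the 7 was at rps-1 (WBGene00004470, III, 4475918 to 4476876, plus strand), whose protein lies at the messenger RNA exit on the platform in yeast and mammalian ribosomes. Its peak at III, 4475583 to 4475732, had a signal of 188 in the pooled list and ranked 39 among 388 nuclear optimal peaks. Its signal was 95.0 in replicate 1 and 94.4 in replicate 2, where it ranked 46 among 14045 and 37 among 14687 nuclear peaks. The summit lay 253 bp upstream of rps-1, inside the noncoding RNA gene F56F3.10 and 8 bp upstream of the start of another noncoding RNA gene, F56F3.11. The nearest protein-coding start apart from rps-1 was that of ifet-1, which encodes a repressor of translation, at 515 bp. As printed above, GCGGAGTG covered the summit, and GAGAGA was 43 bp away.

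The peak of rps-12 (WBGene00004481, III, 5679298 to 5680187, plus strand), which encodes a protein of the beak of the head, had a signal of 146 and ranked 82. Its signal was 65.6 in replicate 1 and 74.5 in replicate 2, with summits 2 and 3 bp from the pooled one. The pooled summit, in a peak at III, 5679049 to 5679188, was 172 bp upstream of rps-12 and 121 bp upstream of ska-3, a gene of the spindle and kinetochore on the opposite strand.

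The next 3 peaks in order of signal belonged to genes whose proteins lie in the head, all on chromosome I. The peak of rps-15 (WBGene00004484, I, 8815572 to 8816193, minus strand), whose protein reaches towards the decoding centre, had a signal of 129. It rested on replicate 1, with a signal of 70.5 and rank 108 there. In replicate 2 no peak overlapped it, and the nearest summit was 2998 bp away. Without rps-15, 6 genes had an optimal peak with a match in each replicate within 100 bp. The peak of rps-20 (WBGene00004489, I, 14468332 to 14469103, minus strand) had a signal of 128, with 67.9 in replicate 1 and 58.5 in replicate 2. The peak of rps-19 (WBGene00004488, I, 9625049 to 9625796, minus strand), whose human counterpart is mutated in an inherited anaemia, had a signal of 109, with 65.4 in replicate 1 and 42.3 in replicate 2.

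The 2 weakest of the 7 were at genes of the body and platform. The peak of rps-26 (WBGene00004495, I, 14759930 to 14760626, plus strand), whose protein touches messenger RNA in the exit channel in yeast and mammals, had a signal of 100. It had a signal of 59.3 in replicate 1 at the same summit. Replicate 2 had a peak of rank 871 with its summit 36 bp away, and a stronger peak of 56.4 further off, 598 bp upstream of rps-26. The peak of rps-23 (WBGene00004492, IV, 12390298 to 12391053, minus strand), whose protein stands in the decoding centre and affects the accuracy of reading, had a signal of 92.4. It had 44.8 in replicate 1 and 48.9 in replicate 2. Over all 7 genes the signal had a median of 128 and ran from 92.4 to 188, while the links of all other genes had a median of 106 and ran from 81.7 to 435.

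**Figure D1:**
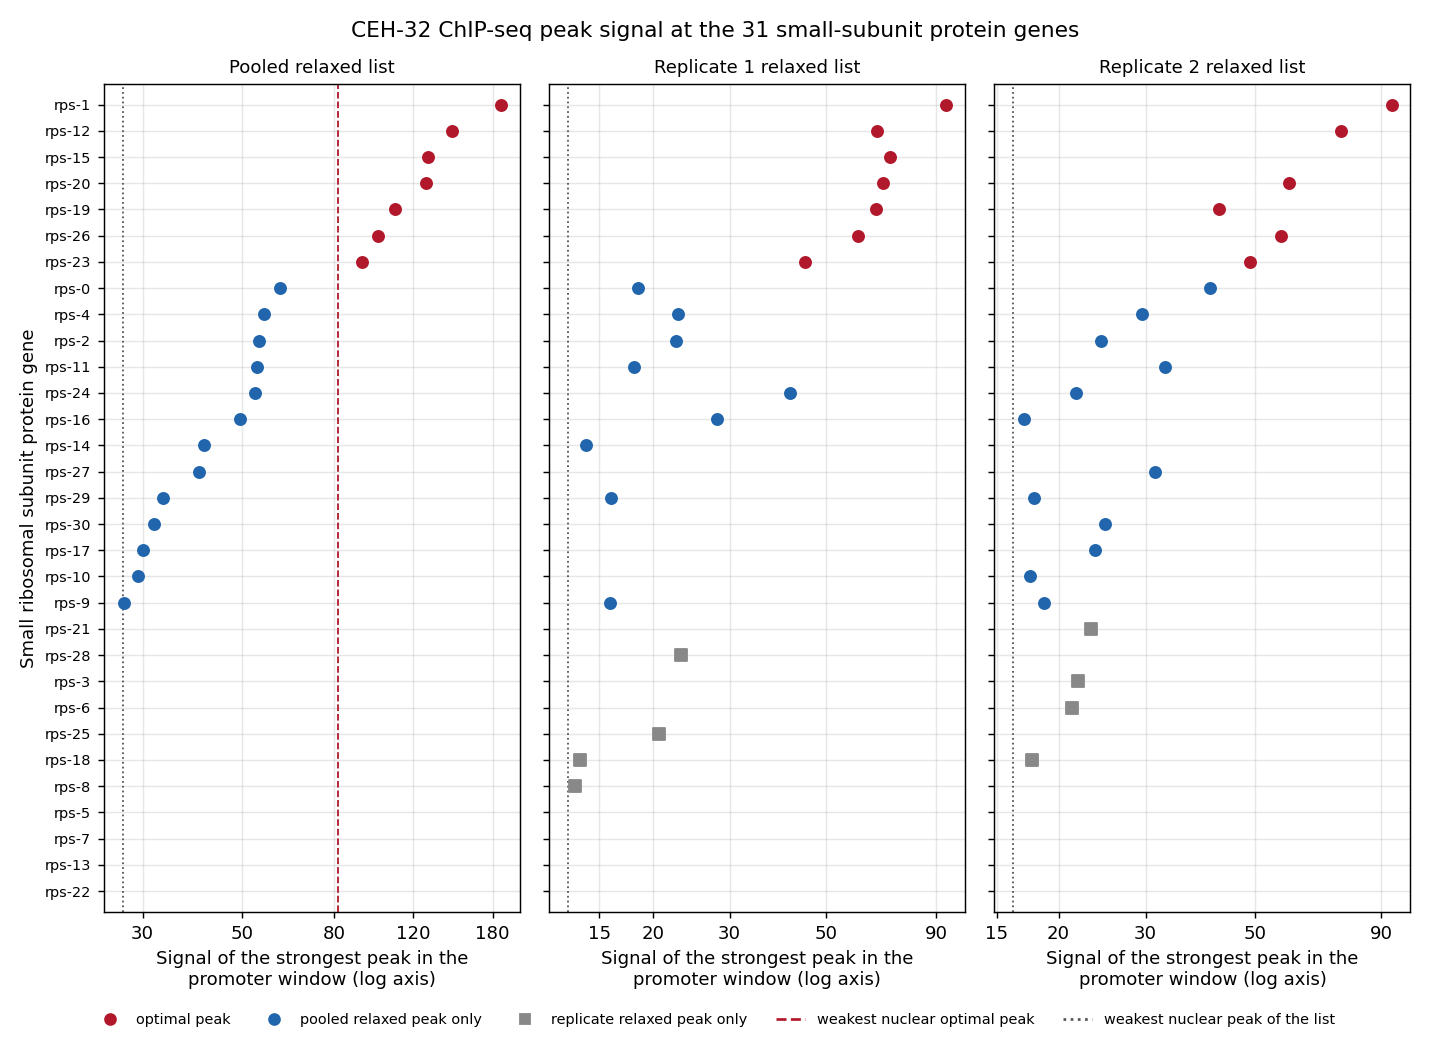
Signal of the strongest peak in the promoter window of each of the 31 small-subunit protein genes, on log axes, in the pooled, replicate 1 and replicate 2 relaxed lists (1 point a gene; no point where the list has no peak there). The 7 genes with an optimal peak lie at 92.4 or more in the pooled list, right of the dashed line at 81.6, and the next gene, rps-0, lies at 60.5; rps-15 has no point for replicate 2.

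The other 13 genes with a pooled relaxed peak lay well under the optimal threshold. The weakest nuclear optimal peak had a signal of 81.6, and the strongest of these 13, at rps-0, had 60.5. The 8 with the highest signal were rps-0, rps-4 (55.8), rps-2 (54.4), rps-11 (54.0), rps-24 (53.3), rps-16 (49.3), rps-14 (41.1) and rps-27 (40.0). The protein of rps-0 lies between the head and the platform, that of rps-2 lines the entry of the messenger RNA channel, and those of rps-14 and rps-27 lie in the platform. The proteins of rps-4, rps-11 and rps-24 are in the body, and that of rps-16 is in the head and touches the transfer RNA. The summits of rps-0, rps-4, rps-2, rps-11 and rps-24 lay 283 to 428 bp upstream, that of rps-16 lay 222 bp downstream, and those of rps-27 and rps-14 lay 739 and 900 bp upstream. The other 5, rps-29, rps-30, rps-17, rps-10 and rps-9, had signals from 27.2 to 33.3, against a lowest nuclear value of 27.1 in the list. Over the 20 linked genes the strongest pooled signal had a median of 54.2, against 35.9 over the 3985 other linked genes.

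The weaker peaks were matched in the replicates as follows. Of the 13 strongest summits, 6 had a summit within 100 bp in each replicate and 7 in 1 replicate only, against 6 of the 7 optimal peaks with a match in each, a difference that was not tested. At rps-24 the signal was 41.4 in replicate 1 (rank 426) and 21.7 in replicate 2 (rank 6280). At rps-0 the order was the other way, with 18.4 in replicate 1 (rank 4641) and 40.6 in replicate 2 (rank 582). The peak of rps-4 had 22.8 in replicate 1 (rank 2234) and 29.5 in replicate 2 (rank 1909). That of rps-2 had 22.6 (rank 2315) and 24.4 (rank 4152), and that of rps-16 ranked 1175 and 12867. The peak of rps-14 had a match in replicate 1 only, at rank 10842, and that of rps-27 in replicate 2 only, with 31.4. At rps-11 the matched peak of replicate 1 had rank 4987, and the strongest peak of replicate 2 lay nearer the gene, 193 bp upstream, with 32.9. In replicate 1 every one of the 7 genes with an optimal peak was above the other 24 genes. In replicate 2, by the peak that matches the optimal summit, 5 of the 7 were above the other 24 genes, the lowest of them rps-19 with 42.3, against 40.6 at rps-0. The matching peak of rps-26 (rank 871) was below that of rps-0 (rank 582), and rps-15 had no peak. The 7 genes were picked by the strongest pooled peaks, and the pooled reads include those of each replicate. Their order within a replicate is therefore partly set by that choice.

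List by list, 20 of the 31 genes had a relaxed peak in replicate 1 (64.5%, against 25.3% of all genes) and 22 in replicate 2 (71.0%, against 25.5%). A peak in the window in each replicate was present at 15 genes, or 48.4%, against 12.6% of all genes. At least 1 of the ce11 lists had a peak at 27 genes, or 87.1%, against 39.3% of all genes. Over all genes, 7840 of 19973 had a peak in at least 1 of these lists and 4005 in the pooled list. Peaks in a replicate list alone were therefore common among all genes too. Of the 27 genes, 7 had a peak in a replicate list and not in the pooled list. They were rps-8, rps-25 and rps-28 in replicate 1, rps-3, rps-6 and rps-21 in replicate 2, and rps-18 in each. Their signals ran from 13.2 to 23.2 in replicate 1 and from 17.7 to 23.3 in replicate 2. The lowest nuclear values of these lists were 12.7 and 16.2. The genes rps-5, rps-7, rps-13 and rps-22 had no summit in their window in any of these lists.

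The 7 genes included head genes and genes of the body and platform. The genes were grouped by the place of their proteins, assigned from general knowledge of yeast and mammalian ribosomes and not checked against a structure. An optimal peak was at 4 of 13 head genes and 3 of 18 body and platform genes, against 1.41% of all genes. In the pooled relaxed list it was 8 of 13 and 12 of 18, against 20.1% of all genes. The grouping was made after the values were seen, and the difference was not tested. The 7 genes were also spread over chromosomes, with 4 of the 8 members on I, 2 of the 9 on III and 1 of the 10 on IV, and none of the 1 on II or the 3 on V. The matching shares of all genes on each chromosome were not worked out, so these counts have no background beside them.

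The 7 optimal summits all lay upstream of the annotated start. Their distances ran from 172 bp at rps-12 to 423 bp at rps-26, with a median 274 bp upstream. For all other genes linked to an optimal peak, the summit was upstream in 92.8% of 278 links, with a median 258 bp upstream and a range from 993 bp upstream to 484 bp downstream. In the pooled relaxed list, 19 of the 25 summits at the 20 genes were upstream (76.0%), against 71.3% for other genes. The middle 50% of the members' summits lay between 375 and 157 bp upstream, and that of other genes between 516 bp upstream and 45.0 bp downstream. The 6 summits inside the genes were those of rps-4, rps-10, rps-16, rps-17, rps-19 and rps-26, with signals from 28.2 to 49.3, of which rps-10 had its summit in an intron and the others in coding exons.

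**Figure D2:**
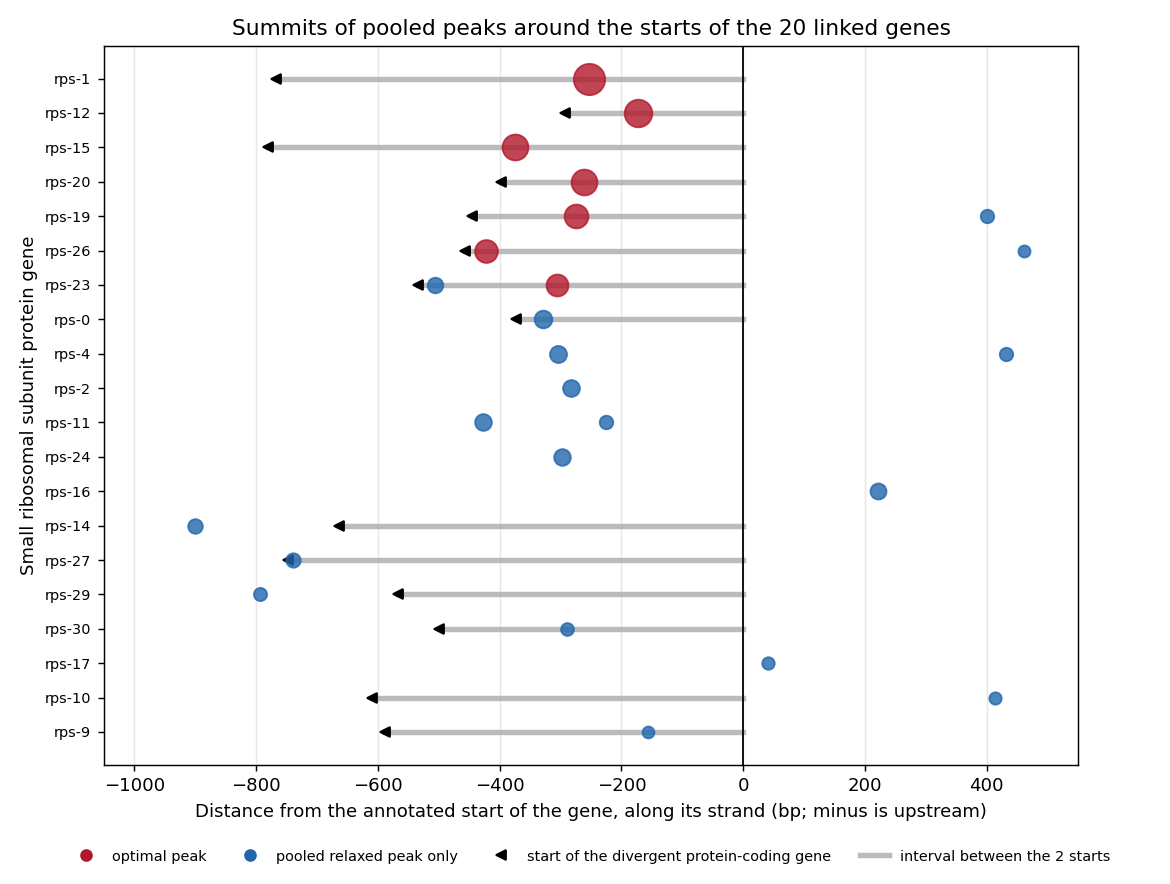
Position of the 25 pooled summits at the 20 linked genes, in bp from the annotated start along the gene (minus is upstream), with the area of each point in proportion to its signal; triangles mark the start of a protein-coding gene that runs the other way and bars the interval between the starts. The 7 optimal summits lie 172 to 423 bp upstream, each inside such an interval.

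Each of the 7 summits lay between 2 protein-coding genes that run away from each other. A divergent neighbour, meaning a protein-coding start on the other strand within 1000 bp upstream, was present at 19 of the 31 genes (61.3%), against 18.2% of all other genes and 57.1% of the 49 large-subunit and stalk protein genes. All 7 genes with an optimal peak were among the 19, and none of the 12 genes without such a neighbour had one. Among all other genes, 2.57% of those with a divergent neighbour and 1.11% of those without had an optimal peak. The large-subunit genes ran the other way, with 4 of 28 and 5 of 21. In the pooled relaxed list, 14 of the 19 small-subunit genes with such a neighbour and 6 of the 12 without were linked, against 24.8% and 18.9% of all other genes. For the large subunit it was 13 of 28 (46.4%) and 14 of 21 (66.7%). These are counts of few genes and were not tested.

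A summit in such an interval cannot be assigned to either gene. Of the 7 optimal summits, 6 were nearer the start of another gene than that of the small-subunit gene (85.7%, against 47.5% of the links of other genes), and 5 were nearer a protein-coding one (71.4%, against 24.1%). At rps-19 the summit was 274 bp from its own start and 171 bp from hsr-9, a gene of the DNA damage response. At rps-20 it was 262 bp from its own start and 135 bp from ekl-4. At rps-23 it was 305 bp from its own start and 229 bp from dpm-3, whose product is a subunit of the enzyme that makes dolichol-linked mannose. At rps-26 it was 423 bp away and only 34 bp from tmem-107, a gene of the ciliary transition zone, and 95 bp from the small nucleolar RNA gene F39B2.14. At rps-15 the own start was nearer, at 375 bp, with F36A2.9 at 406 bp. With each peak linked only to the nearest protein-coding start, 2 small-subunit genes had an optimal peak, rps-1 and rps-15 (1.70% of all genes under the same rule), and with windows of 250 bp on each side only rps-12 had one (0.646%).

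The 12 genes with a divergent neighbour and no optimal peak include all 3 that face a large-subunit gene: rps-10 with rpl-24.1, rps-14 with rpl-36 and rps-30 with rpl-39. The gap between the starts had a median of 457 bp at the 7 genes with an optimal peak (293 to 781 bp). It was 588 bp at the 7 with a pooled relaxed peak only (373 to 748 bp), and these ranges overlap. At the 3 with a replicate peak only it was 531 bp (415 to 592 bp), and at the 2 with no peak 324 bp (266 to 382 bp). Some weak summits also lay at the neighbour. That of rps-27 was 9 bp from the start of picd-1, that of rps-29 lay in the 5′ untranslated region of snt-2, a synaptotagmin gene, and that of rps-14 in a coding exon of rpl-36.

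**Figure D3:**
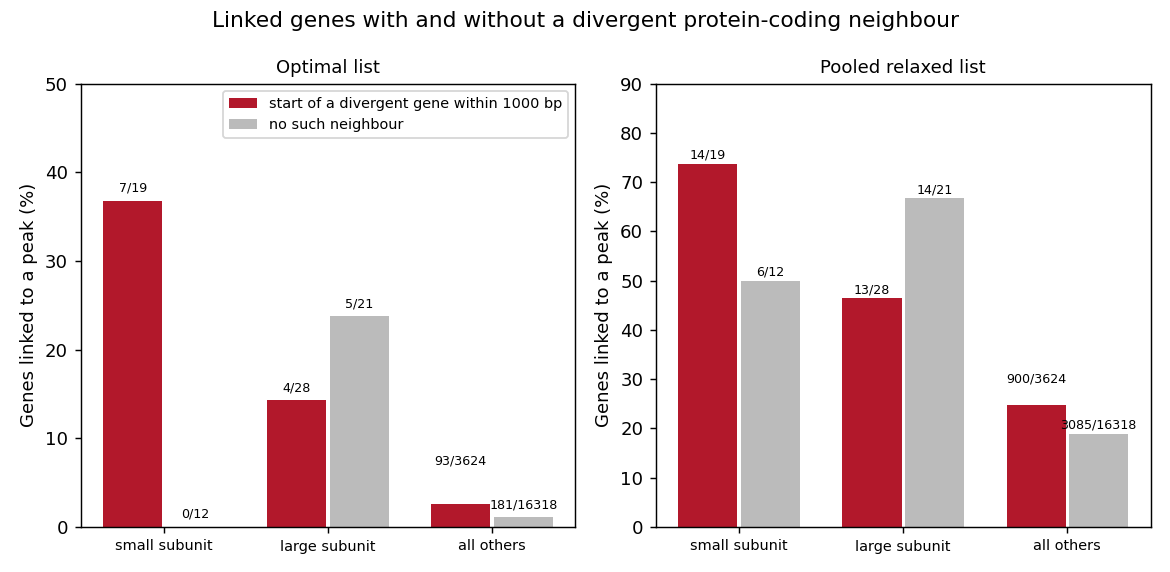
Share of genes linked to an optimal peak (left) or a pooled relaxed peak (right), for genes with a divergent protein-coding start within 1000 bp (red) and without (grey); bars are percentages and the labels above them counts. In the left panel the small-subunit genes have 7 of 19 and 0 of 12.

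The letters at the 7 summits varied. Within 50 bp of the summit, GAGAGA or its complement was present at 1 of the 7 (rps-1), against 28.3% of the 381 other nuclear optimal peaks and 9.12% of the 9995 pooled relaxed peaks that overlap no optimal peak. It stood in 6.16% of windows of the same width placed 274 bp upstream of every nuclear protein-coding gene. TGATAC, known as a core motif of sine oculis proteins, was at 1 of the 7, against 2.89% of the other optimal peaks and 3.33% of those promoter windows. GCGCGC was at 1 of the 7, against 8.92% of the other optimal peaks and 1.10% of the promoter windows. TAATTA and TGATAA were at none, against 1.57% and 2.62% of the other optimal peaks. GCGGAGTG was at 2 of the 7, against 0.787% of the other optimal peaks and 0.135% of the promoter windows, but it was picked because these windows hold it. The median content of G and C was 50.5% at the 7 summits (38.6% to 53.5%) and 50.5% at the other optimal peaks, against 33.7% in the promoter windows. Within 100 bp of the summit it was lower at the 7, 41.3% (33.8% to 44.3%), against 47.8% at the other optimal peaks. In promoter windows of that width it was 33.8%. With 7 windows, these shares have little precision.

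Set beside other genes of protein synthesis, the 22.6% of small-subunit genes with an optimal peak was nearest to the share of the large subunit. Of the 49 large-subunit and stalk genes, 9 had an optimal peak (18.4%), with the highest signals at rpl-3 (435), rpl-15 (284) and rpl-20 (270), all above the 188 of rps-1. None of the 28 mitochondrial small-subunit genes (mrps-) had one, and none of 33 ribosome assembly factors, a list that mixes both subunits. With 1.41% of all genes linked, a count of 0 in lists of this size does not set them apart from other genes. Of 25 genes listed by name as initiation factors, 3 had one: eif-3.C (164), iff-2 (138) and eif-3.B (105). Not all genes of that list act in initiation or bind the small subunit. In the pooled relaxed list it was 27 of 49 large-subunit genes, 10 of 28 mitochondrial genes, 17 of 33 assembly factors and 7 of the 25 listed as initiation factors. Small-subunit protein genes under other symbols had no optimal peak. For rack-1, a scaffold protein on the head, the pooled signal was 43.6 with the summit 202 bp upstream. The gene ubl-1, which encodes a ribosomal protein fused to a ubiquitin-like domain, had a peak in replicate 1 alone (15.5).

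**Figure D4:**
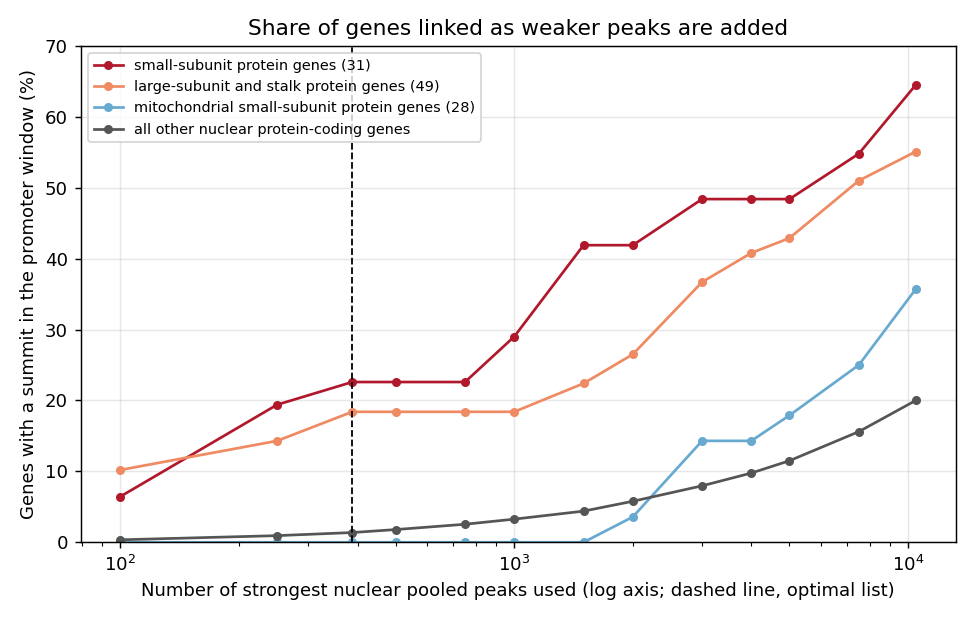
Percentage of genes with a summit in the window as the nuclear pooled list is read from its strongest peaks (log axis) down to all 10461. At 388 peaks the small-subunit line is at 22.6%, the large-subunit line at 18.4%, the mitochondrial line at 0% and that of all other genes at 1.37%; at 1500 peaks they are at 41.9%, 22.4%, 0% and 4.39%.

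Reading the pooled list down from its strongest peaks, the count of small-subunit genes stood at 2 with the 100 strongest nuclear peaks, 6 with 250 and 7 with 388. The share of all other genes was 0.346%, 0.933% and 1.37% with 100, 250 and 388 peaks. The small-subunit count was still 7 with 750 peaks, then rose to 9 with 1000 and 13 with 1500, where the lowest signal was 48.7. With 750, 1000 and 1500 peaks, the share of all other genes was 2.54%, 3.26% and 4.39%. The large-subunit genes stood at 5, 7 and 9 with 100, 250 and 388 peaks, and at 11 with 1500.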

How the data were processed

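Peak lists from 2 replicates were analysed. Per the file names and labels, each replicate had a relaxed list of peaks and background, and the pooled reads a relaxed and a thresholded optimal list, on builds ce10 and ce11. Signal, 1 value a peak, is the authors' own and was deposited with a scale of its own in each list. The authors also deposited a −log10 of the q-value, which played no part in any count. Aligner, peak caller and thresholds: not given in the sources used here. Without read counts, depth is unknown. No control library was analysed here.

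The 4 ce11 lists were used with the WBcel235 genome (RefSeq) and Ensembl annotation release 115. No peak ran past a chromosome end. The 4 lists on ce10 were left aside, as the reference is ce11. A summit is the start in column 2 plus the offset in column 10 plus 1. Replicate summits were matched within 100 bp. The sequence at rps-12 is not reported here. Linking and letter searches were tested on simulated data. No test was run: counts stand beside those over all genes. The members and lists were chosen with earlier results of these data known. Named were all members with an optimal peak, the 8 strongest relaxed-only members, members without a peak and the 3 strongest linked genes of each comparison list. Lists of 56 assembly and 28 initiation symbols had 23 and 3 without a match, as did rpsa-1 and rpsa-2. Alternatives were other windows, link rules, thresholds, motifs and single replicates. Python 3.11.15, numpy 2.4.6, pandas 2.3.3 and matplotlib 3.10.9 were used.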

Additional observations from a re-analysis of the deposited data

How the results depend on the processing

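The count of 7 genes with an optimal peak was the same with windows from 500 or 2000 bp upstream, against 1.04% and 1.8% of all genes. It was also 7 with any overlap (1.54%), with the most upstream start only (1.31%), and with ubl-1 and rack-1 added after the data were seen. It was 1 (rps-12) with windows of 250 bp on each side, against 0.646% of all genes, and 2 (rps-1 and rps-15) with each peak linked to the nearest protein-coding start within 5 kb, against 1.70%. It was 4 with the stronger part of the optimal list, against 0.666%. From the 412 strongest peaks of 1 replicate it was 7 in replicate 1 (1.42% of all genes) and 5 in replicate 2 (1.38%). The same 5 genes were in each replicate, but rps-26 was linked in replicate 2 through another peak, 598 bp upstream. The replicate 2 peak that matches the optimal summit of rps-26 had rank 871. The counts for the pooled list (15 to 24) and for peaks in each replicate (11 to 13) stayed within 1.5 times the values reported. Over the same settings the share of all genes ran from 12% to 26.8% for the pooled list. For peaks in each replicate it ran from 6.51% to 8.45%. The median distance was -258 bp for the stronger part of the list and -295 to -274 bp with 1 replicate left out. The median signal was 129 with peaks nearer another gene left out, which keeps 1 peak. GAGAGA was at 0 peaks within 25 bp, against 17.1% of the other nuclear optimal peaks, and at 1 within 100 bp, against 43.6%. As GAGAGAGA it was at 0, against 8.14%, and as GAGAG at 1, against 47.2%. GAGAGA was at 0 of the 1 peak not nearer another gene, and at 0 to 1 with 1 replicate left out. GCGGAGTG, added after the data were seen, was at 2. No paired analysis was possible because there was 1 group.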

Other observations

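Small nucleolar RNA genes, which guide the modification of ribosomal RNA, lie inside 5 of the 31 small-subunit protein genes on the same strand (16.1%), against 0.772% of all other nuclear protein-coding genes and 8 of 49 large-subunit genes. The hosts were rps-4, rps-12, rps-13, rps-23 and rps-29. Of these, rps-12 and rps-23 had an optimal peak, rps-4 and rps-29 a pooled relaxed peak, and rps-13 none in its window. Among the 154 hosts outside the small-subunit set, 14 had an optimal peak and 75 a pooled relaxed peak. Over all nuclear protein-coding genes the shares were 1.41% and 20.1%. These counts were not tested.

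Some genes without a pooled summit in their window had one just past its end. The nearest pooled summits were 585 bp downstream of a start of rps-6 (signal 46.2), 677 bp downstream of rps-13 (30.2) and 684 bp downstream of rps-22 (28.9). The nearest to rps-5 and rps-7 were 5715 bp upstream (49.1) and 3147 bp downstream (33.0). Among the 7 optimal peaks, those of rps-1, rps-12 and rps-20 were 150, 140 and 105 bp wide, while 61 of the 388 nuclear optimal peaks were narrower than the common width of 420 bp.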
